A study of Mus musculus with 30 samples.

Results

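A set of 8 genes known for luminal progenitor and alveolar fate in the mammary gland (MG), Elf5, Ehf, Kit, Irx1, Aldh1a3, Sox9, Runx1 and Cebpb, was followed through sorted luminal and basal cells. They were chosen by symbol, and all 8 of them were among the 11137 genes measured in 30 libraries. The mammary duct has an outer basal layer and an inner luminal layer. The luminal layer holds hormone-sensing cells and hormone receptor-negative progenitors, and the progenitors give rise to the alveolar cells that secrete milk after pregnancy. Rank, the receptor of the cytokine Rankl, is known for its part in the growth of these progenitors. Elf5 and Ehf are Ets family transcription factors of epithelial cells, and Elf5 drives the alveolar program downstream of prolactin. Kit is a receptor tyrosine kinase carried by luminal progenitors, and Aldh1a3 makes retinoic acid from retinaldehyde. Sox9, Runx1, Cebpb and Irx1 encode transcription factors of the Sox, Runt, C/EBP and Iroquois families.

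Cells came from female mice on a mixed background, with each library from 1 mouse. K8imTmG mice carried K8rtTA, Tet-O-Cre and the mTmG reporter, in which Cre switches cells from tomato to GFP, and K8iDRank mice carried these alleles together with floxed Rank (RANK fl/fl). Both genotypes received doxycycline (1 mg per ml), which the labels place between week 3 and week 8 of age, so the control mice also expressed Cre in Krt8-positive luminal cells. Basal cells of K8iDRank mice keep Rank because the Krt8 promoter does not drive the transgene there. Luminal libraries numbered 3 for virgin K8imTmG, 3 for virgin K8iDRank, 5 for parous K8imTmG and 4 for parous K8iDRank. Basal libraries numbered 3 for virgin K8imTmG, 4 for virgin K8iDRank, 4 for parous K8imTmG and 4 for parous K8iDRank. Parous glands were taken after about a month of involution. K8iDRank mothers lost their litters early in lactation whereas control mothers nursed until the pups were removed, so genotype and length of nursing cannot be told apart in parous mice.

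Values were 3′ mRNA reads divided by a size factor, here called normalized counts, and levels were compared only within a gene. Library depth ranged from 340445 to 3130419 reads, and 1 read was worth 0.381 to 5.43 normalized counts. Krt5, Krt14 and the other markers gave the labelled lineage in every library, since the sum of 11 basal markers was 66.3 to 336 in luminal and 11149 to 18043 in basal libraries. Rank (Tnfrsf11a) was 9.57 to 18.6 in virgin K8imTmG, 11.5 to 23.8 in virgin K8iDRank, 12.8 to 64.9 in parous K8imTmG and 27.0 to 41.1 in parous K8iDRank luminal libraries. These ranges overlap, and reads from the 3′ end do not show whether inner exons were deleted, so genotypes are those of the labels. The libraries also fell on different sides of a wide gap in Clec2d, a lectin gene, with 16 at or below 8.68 (low side) and 14 at or above 65.6 (high side). All 3 luminal virgin K8iDRank libraries lay on the high side and all 3 luminal virgin K8imTmG libraries on the low side. In basal virgin cells the sides were the other way round, with 3 high K8imTmG and 4 low K8iDRank libraries. Luminal parous K8imTmG held 3 low and 2 high libraries (mice 494 and 557), luminal parous K8iDRank 4 low, basal parous K8imTmG 4 high and basal parous K8iDRank 2 of each. In virgin mice side and genotype cannot be told apart, nor side and parity in K8iDRank luminal cells. Depth moved with the side, with a median of 878946 reads on the high and 2478110 on the low side. In bulk samples such as these, fewer cells of a type and less RNA per cell cannot be told apart.

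In GENCODE vM39 on GRCm39 the 8 genes lie on 6 chromosomes, and each is protein coding. Ehf (chr2:103093778-103133623, minus strand) and Elf5 (chr2:103242033-103281334, plus strand) are neighbours, with 108409 bases and 0 protein-coding genes between them. Cebpb lies on the same chromosome (chr2:167530835-167532338, plus strand). Kit is at chr5:75735576-75817404 on the plus strand, Aldh1a3 at chr7:66040638-66077850 on the minus strand and Sox9 at chr11:112673009-112678586 on the plus strand. Irx1 is at chr13:72106040-72111848 and Runx1 at chr16:92398354-92623037, both on the minus strand. Irx1 is the gene whose differences recur most in the comparisons, and the study designed a qPCR primer pair for it, so the pair is shown here in lower case from 5′ to 3′.
Irx1 forward: cacccaactacagcgccttctt
Irx1 reverse: cgttgtgtgggctgcgaaggt
The forward primer matched coding sequence of exon 1 (chr13:72111369-72111390) and the reverse primer the opposite strand of coding sequence of exon 2 (chr13:72108339-72108359) of the longest Irx1 transcript, giving a product of 125 bases. The product ends 1796 bases before the 3′ end of this transcript of 2379 bases, whereas the sequencing reads come from the 3′ end.

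RefSeq promoter windows of 300 bases on GRCm38.p6, reaching from 250 bases before to 50 bases after a start, were given for 4 of the genes, namely Elf5, Kit and Runx1 with 2 starts each and Cebpb with 1. These were searched on both strands for short words of the Ets, Runt and C/EBP families, and for a Stat word because Stat5 acts in the same alveolar program. No word of the Sox or Iroquois families was searched. The C/EBP word TTGCNNAA was found in both windows of Elf5 and in 10.8% of all 32851 windows. The Runt word TGTGGT was found in 1 window of Runx1 itself, as its reverse complement, and in 16.8% of all windows. The Ets word AGGAAG was in 3 of the 7 windows, from Kit and Runx1, and in 35.4% of all windows. The 2 Kit windows overlap, and their match is the same stretch of the genome. The Stat word TTCNNNGAA was in 0 of the 7 windows and in 8.30% of all windows. Capitals mark the word in its surroundings, read along the gene's strand. In the Runx1 stretch a further match of the Runt word is left in lower case.
Elf5, first start, chr2:103411853-103411880: agtcagagtcTTGCCTAAccctctggct
Elf5, second start, chr2:103423818-103423844: ccctccagcTTGCTCAAcggagactgc
Runx1, chr16:92826031-92826056: ctcataaacaACCACAgaaccacaag
Kit, chr5:75574755-75574780: gagtgctaggAGGAAGaggatccagg
A match of letters is a description of the window and not a bound site.

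The 8 genes differed in their pattern by lineage. Elf5, Ehf, Kit and Aldh1a3 were far higher in luminal cells, Sox9 was slightly higher there, and Irx1 and Cebpb were higher in basal cells, while Runx1 did not pass the test. Over all 30 libraries 7 of the 8 genes passed limma's adjusted p of 0.05, beside 55.7% of all 11133 genes tested.

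Elf5 had a normalized count of 56.7 to 345 with a median of 148 in the 15 luminal libraries, and 0 to 9.83 with a median of 4.30 in the 15 basal libraries. The luminal difference was 4.94 on the log2 scale (SE 0.23, limma adjusted p = 2.87e-17), and the ranges did not overlap. Ehf was 141 to 894 with a median of 329 in luminal and 0 to 27.3 with a median of 8.02 in basal libraries, a log2 difference of 5.23 (SE 0.31, limma adjusted p = 7.2e-15). Both Ets factors were therefore near their detection floor in basal cells, where 4 of 15 libraries for Elf5 and 3 of 15 for Ehf held under 3 reads.

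Kit was 94.9 to 288 with a median of 198 in luminal and 0 to 18.1 with a median of 5.43 in basal libraries. Its log2 difference was 4.94 (SE 0.31, limma adjusted p = 3.42e-14), with 5 of 15 basal libraries under 3 reads. Aldh1a3 was 186 to 714 with a median of 296 in luminal and 8.02 to 67.7 with a median of 21.7 in basal libraries, a log2 difference of 3.81 (SE 0.20, limma adjusted p = 4.84e-16). For these low genes the size depends on the added count, and with 4 added in place of 1 the differences were 4.14 for Elf5, 4.70 for Ehf and 4.26 for Kit.

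Sox9, a factor known for luminal progenitor and stem cell activity, was 1043 to 2723 in luminal and 773 to 1419 in basal libraries. The ranges overlap, and the luminal excess was 0.43 on the log2 scale (SE 0.12, limma adjusted p = 0.00246). Irx1 went the other way, with 168 to 927 (median 353) in luminal and 281 to 1407 (median 652) in basal libraries and a luminal minus basal difference of -1.08 (SE 0.16, limma adjusted p = 1.84e-06). Cebpb, needed for ductal and alveolar development, was 241 to 517 in luminal and 324 to 1298 in basal libraries, with a difference of -0.84 (SE 0.14, limma adjusted p = 8.26e-06). Runx1 was 221 to 580 in luminal and 230 to 848 in basal libraries, with a difference of -0.25 (SE 0.13, limma adjusted p = 0.106).

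**Figure D1:**
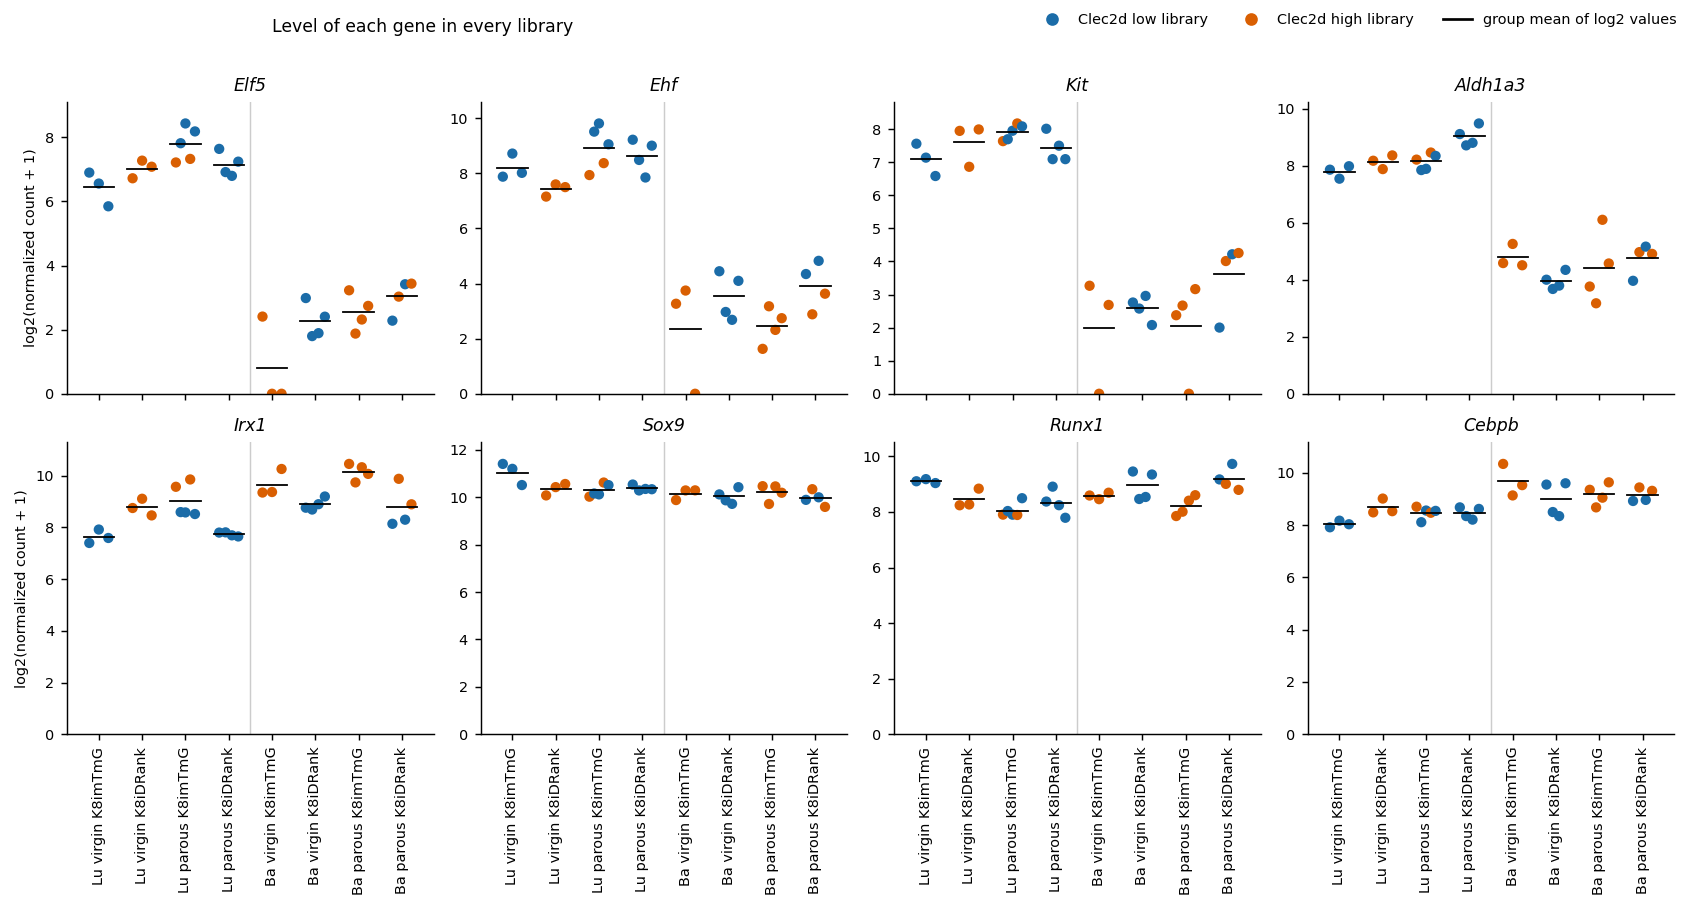
Level of each gene on the log2(normalized count + 1) scale (y axis) in all 30 libraries, grouped by lineage (Lu luminal, Ba basal), stage and genotype (x axis). Points are libraries colored by Clec2d side and bars are group means. Elf5, Ehf, Kit and Aldh1a3 separate the lineages, whereas Irx1, Sox9, Runx1 and Cebpb are well expressed in both.

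Both lineages were sequenced from 13 of the 17 mice. Within a mouse, Elf5, Ehf, Kit and Aldh1a3 were higher in the luminal library in 13 of 13 mice, with medians of 4.92, 4.91, 5.29 and 4.01 on the log2 scale. Sox9 was higher in the luminal library in 11 of 13 mice (median 0.32), Irx1 in 2 (median -1.16), Runx1 in 3 (median -0.23) and Cebpb in 1 (median -0.75). The 2 libraries of a mouse lay on opposite Clec2d sides in 10 of the 13 mice. With the side as a term in the fit the Irx1 difference was -0.76 (SE 0.12) and that of Runx1 -0.35 (SE 0.14, limma adjusted p = 0.0318), so that all 8 genes passed.

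**Figure D2:**
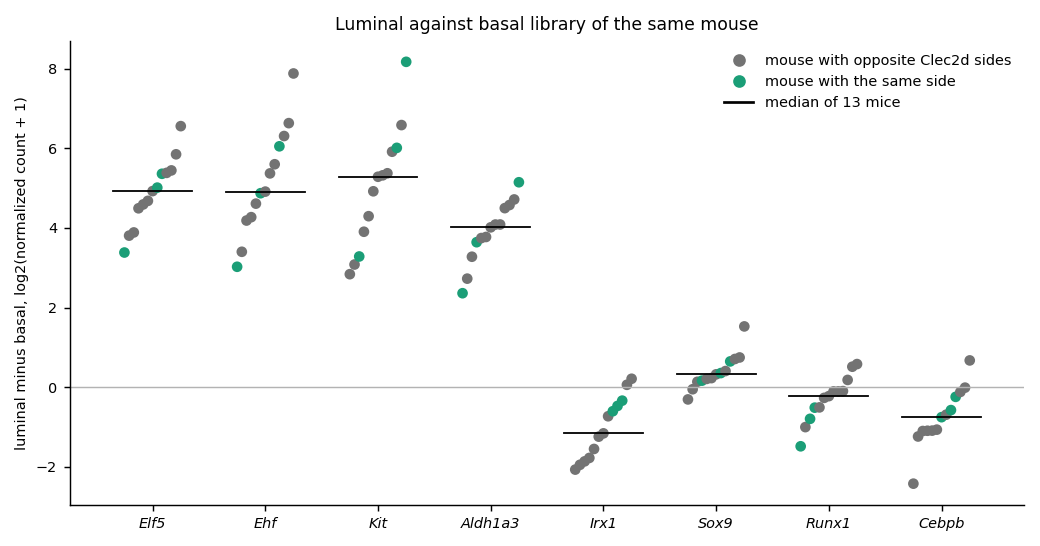
Luminal minus basal difference on the log2(normalized count + 1) scale (y axis) for each gene (x axis) in the 13 mice with both lineages. Points are mice, colored by whether their libraries share a Clec2d side, and bars are medians. All points of Elf5, Ehf, Kit and Aldh1a3 lie above 0, and those of Irx1 and Cebpb lie mostly below it.

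The first luminal question was whether Rank deletion changed these genes in virgin glands. Of the 8 genes 0 passed in the 3 against 3 libraries (limma), beside 0.984% of all genes tested, with 5 of 8 at an unadjusted p under 0.05 beside 22.1% of all genes. In DESeq2 1 of the 8 passed (Irx1) beside 6.44% of all genes, and in edgeR 0 did beside 1.37%. The groups did not overlap for 4 of the 8 genes, beside 28.3% of all genes. Irx1 was 168, 241 and 192 in virgin K8imTmG and 430, 552 and 353 in virgin K8iDRank libraries, so every K8iDRank library was above every control. The log2 fold change was 1.14 (SE 0.26, limma adjusted p = 0.0645). Ehf was 234, 419 and 258 in K8imTmG against 141, 192 and 180 in K8iDRank (log2 fold change -0.79, SE 0.28, limma adjusted p = 0.146), with all K8iDRank values the lower ones. Runx1 and Cebpb also did not overlap, Runx1 with 525 to 580 against 302 to 457 and Cebpb with 241 to 287 against 358 to 517. Elf5 was 119, 93.3 and 56.7 in K8imTmG and 105, 154 and 135 in K8iDRank (log2 fold change 0.59, SE 0.31), and these values overlap. All of these values also follow the Clec2d side, which is high in every virgin K8iDRank and low in every virgin K8imTmG luminal library.

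In parous luminal cells 0 of the 8 genes passed between genotypes (limma), beside 0.0991% of all genes tested, with 4 at an unadjusted p under 0.05 beside 19.9% of all genes. In DESeq2 2 of them passed (Irx1 and Aldh1a3) beside 6.06% of all genes, and in edgeR 0 did beside 0.198%. Groups did not overlap for 2 of the 8 genes, beside 9.73% of all genes. Irx1 was 385, 382 and 366 in the 3 low-side and 761 and 927 in the 2 high-side K8imTmG libraries, and 222, 224, 206 and 200 in K8iDRank, below every control. Its log2 fold change was -1.29 (SE 0.29, limma adjusted p = 0.0938). Among low-side libraries alone the fold change was -0.83 (limma adjusted p = 0.0406), smaller in size but past the threshold as were 0.416% of all genes there.

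Aldh1a3 was 551, 419, 445 and 714 in parous K8iDRank and 296, 229, 236, 352 and 324 in parous K8imTmG luminal libraries. All K8iDRank values lay above all control values, with a log2 fold change of 0.88 (SE 0.21, limma adjusted p = 0.102). With the Clec2d side as a term and all luminal libraries in one fit it was 1.00 (SE 0.21, limma adjusted p = 0.0391), and 0.833% of all genes passed. Elf5 was 148, 225, 345, 160 and 290 in K8imTmG and 199, 120, 110 and 150 in K8iDRank (log2 fold change -0.65, SE 0.28, limma adjusted p = 0.235), with overlapping values. Kit was 198 to 288 in K8imTmG and 136 to 257 in K8iDRank, and Ehf 244 to 894 and 229 to 594.

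Elf5, Ehf, Kit and Irx1 had their highest luminal group means in parous K8imTmG, at 234 ± 84.4, 545 ± 271, 242 ± 39 and 564 ± 262 (SD, n = 5). Of the 8 genes 1 passed, Runx1, beside 2.20% of all genes tested. Groups did not overlap for 4 of the 8 genes, beside 16.9% of all genes. Runx1, a factor known for its role in mature luminal cells, was 550, 580 and 525 in virgin and 239, 261, 238, 236 and 360 in parous K8imTmG libraries, and so fell by 1.06 on the log2 scale (SE 0.21, limma adjusted p = 0.0376). All parous values were below all virgin values, but the adjusted p rose to 0.0703 to 0.130 when any 1 of 6 of the 8 mice was left out (532, 534, 557, 531, 533 or 538), with changes of -1.10 to -1.03.

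Elf5 was 119, 93.3 and 56.7 in virgin and 148, 225, 345, 160 and 290 in parous K8imTmG libraries, with all parous values the higher ones (log2 fold change 1.36, SE 0.34, limma adjusted p = 0.0726). Without parous mouse 494 it was 1.51 (limma adjusted p = 0.031), with 732 of all genes past the threshold. Irx1 was 168 to 241 in virgin and 366 to 927 in parous libraries (log2 fold change 1.39, SE 0.35, limma adjusted p = 0.0728). Kit was 94.9 to 188 and 198 to 288 (log2 fold change 0.81, SE 0.25, limma adjusted p = 0.113), again without overlap. Ehf was 234, 419 and 258 in virgin and 244, 728, 894, 329 and 529 in parous libraries, which overlap (log2 fold change 0.73, SE 0.42, limma adjusted p = 0.338).

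Among low-side libraries alone, 3 virgin and 3 parous, 4 of the 8 genes passed for parity in K8imTmG, beside 12.8% of all genes. Elf5 rose by 1.71 (limma adjusted p = 0.0168), Ehf by 1.25 (limma adjusted p = 0.0299) and Irx1 by 0.93 (limma adjusted p = 0.0228), and Runx1 fell. Sox9 was 1466, 2357 and 2723 in virgin and 1043 to 1579 in parous libraries (log2 fold change -0.75, SE 0.28, limma adjusted p = 0.163), Aldh1a3 186 to 252 and 229 to 352, and Cebpb 241 to 287 and 276 to 417.

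In K8iDRank luminal cells 3 of the 8 genes passed for parity, beside 16.0% of all genes tested, and these 3 were also the genes whose groups did not overlap, beside 29.7% of all genes. Irx1 was 430, 552 and 353 in virgin and 222, 224, 206 and 200 in parous libraries, and fell by 1.04 on the log2 scale (SE 0.19, limma adjusted p = 0.00765). Ehf was 141, 192 and 180 in virgin and 594, 357, 229 and 511 in parous libraries, and rose by 1.22 (SE 0.30, limma adjusted p = 0.0216). Aldh1a3 was 288, 235 and 328 in virgin and 551, 419, 445 and 714 in parous libraries, and rose by 0.89 (SE 0.22, limma adjusted p = 0.0238).

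Each of these 3 parity changes also runs along the Clec2d side, because the virgin K8iDRank libraries are all high and the parous ones all low. With the side as a term and all luminal libraries in one fit, 0 of the 8 genes passed (limma), and the values were 0.11 for Irx1 (SE 0.27), -0.08 for Ehf (SE 0.47) and 1.20 for Aldh1a3 (SE 0.33, limma adjusted p = 0.416). That fit takes the size of the side effect from the 5 parous K8imTmG libraries alone. Without virgin mouse 821 or parous mouse 830, 1 gene (Irx1) passed, and without parous mouse 787 or virgin mouse 822 Aldh1a3 did not. Over the 7 fits that leave out 1 library, 729 to 1570 of all genes passed, beside 1643 with every library. Elf5 was 105, 154 and 135 in virgin and 199, 120, 110 and 150 in parous K8iDRank libraries, a log2 fold change of 0.12 (SE 0.24, limma adjusted p = 0.757). Kit, Sox9, Runx1 and Cebpb had log2 fold changes of -0.22 to 0.02.

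Sums of basal and stromal markers were also lower after parity in K8iDRank luminal cells. The sum of the 11 basal markers was 106 to 336 in virgin and 66.3 to 105 in parous K8iDRank luminal libraries, and that of 7 stromal markers 715 to 852 and 174 to 420. Of 5 basal markers tested 1 was lower in parous cells, the smooth muscle actin gene Acta2 (-1.93, limma adjusted p = 0.0173), and of 4 stromal markers tested 1, the collagen-binding proteoglycan gene Dcn (-1.89, limma adjusted p = 0.00409). These counts stand beside 16.0% of all genes tested, in a comparison that runs along the Clec2d side. With the side as a term 0 genes passed in it (limma). Krt5 and Krt14 were above 0 in all 7 libraries. The part of these markers in the changes of the 8 genes was not tested.

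Whether parity differed between genotypes was tested by the interaction, the K8iDRank minus K8imTmG difference in parous minus that in virgin luminal cells. Irx1 alone of the 8 genes passed, beside 12.9% of all genes tested, with an interaction of -2.42 on the log2 scale (SE 0.42, limma adjusted p = 0.00765). With the Clec2d side as a term it was -0.81 (SE 0.38, limma adjusted p = 0.259). Elf5 had an interaction of -1.24 (SE 0.44, limma adjusted p = 0.0718), Runx1 of 0.94 (SE 0.34, limma adjusted p = 0.0747) and Kit of -0.99 (SE 0.43, limma adjusted p = 0.123). The Elf5 value was -1.38 without parous K8imTmG mouse 494 (limma adjusted p = 0.0467), -1.47 without virgin K8imTmG mouse 531 (limma adjusted p = 0.0463) and -2.46 with the side as a term (limma adjusted p = 0.0785). Leaving out virgin K8iDRank mouse 822 gave -1.36 for Kit (limma adjusted p = 0.0407). Ehf had an interaction of 0.49 (SE 0.57) and of -1.34 (SE 0.66) with the side as a term.

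**Figure D3:**
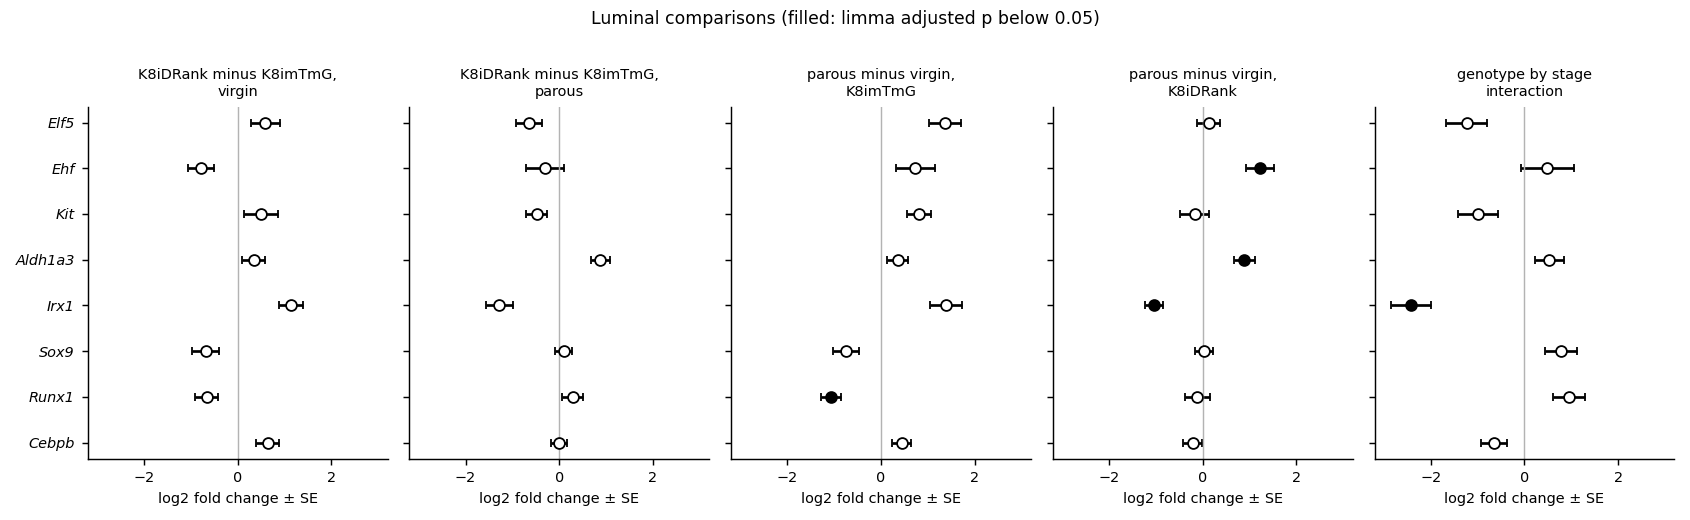
Log2 fold change with its standard error (x axis) of each gene (y axis) in the 4 luminal comparisons of 2 groups and in the luminal genotype by stage interaction. Filled points passed limma's adjusted p of 0.05. Runx1 is filled for parity in K8imTmG, Ehf, Aldh1a3 and Irx1 for parity in K8iDRank, and Irx1 for the interaction.

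The 2 groups that held both sides gave the side difference within a genotype and stage. Irx1 was above on the high side in both, with 761 and 927 against 366 to 385 in luminal parous K8imTmG (log2 difference 1.15) and 943 and 475 against 281 and 314 in basal parous K8iDRank (log2 difference 1.17). Of 9533 genes 16.6% had the high side above in both groups. The 2 high-side mice of luminal parous K8imTmG also had the largest sums of 13 hormone-sensing markers in that group, 5410 and 11192 against 995 to 4893, with the luminal factor gene Foxa1 at 489 and 1169 against 16.8 to 178. Side and that sum cannot be told apart in these 5 libraries. Ehf was below on the high side in both groups, with log2 differences of -1.30 and -1.33, as were 16.6% of genes. Elf5 was lower on the high side in luminal parous K8imTmG, at 148 and 160 against 225, 345 and 290, and overlapped in the basal group at values under 10. Runx1 and Cebpb separated by side in basal parous K8iDRank, with log2 differences of -0.55 and 0.43, and overlapped in luminal parous K8imTmG. In luminal parous K8imTmG taken alone, 26.35% of genes had the high side above and 27.19% had it below. In basal parous K8iDRank taken alone, these shares were 29.84% and 29.86%. Kit, Aldh1a3 and Sox9 overlapped between the sides in both groups. Over all luminal libraries Irx1 was 353 to 927 on the high and 168 to 385 on the low side. In basal cells it was 475 to 1407 on the high and 281 to 586 on the low side.

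The level of hormone-sensing markers also differed between luminal libraries. The sum of 13 hormone-sensing markers, of which the prolactin receptor gene Prlr made up 43.8%, was 12221 to 14160 in virgin K8imTmG, 11285 to 13377 in virgin K8iDRank, 995 to 11192 in parous K8imTmG and 4659 to 8339 in parous K8iDRank luminal libraries. All 13 markers were in the table, and Esr1, Pgr and Foxa1, the defining ones, were above 0 in every luminal library. Of the 13 markers 5 fell with parity in K8iDRank luminal cells, among them Foxa1 with a log2 fold change of -2.17 (limma adjusted p = 0.00881) and the estrogen receptor gene Esr1 with -1.30 (limma adjusted p = 0.00803), and 0 passed with parity in K8imTmG (limma, 7 at an unadjusted p under 0.05), where their median log2 fold change was -1.68. These 5 stand beside 16.0% of all genes in a comparison that runs along the Clec2d side, and with the side as a term 0 genes passed in it (limma).

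Ehf ran opposite to this sum in parous K8imTmG mice. In order of a rising sum of 995, 2592, 4893, 5410 and 11192 (mice 534, 532, 558, 557 and 494), Ehf was 894, 728, 529, 329 and 244. Elf5 in the same order was 345, 225, 290, 160 and 148, lowest where the sum was highest. Irx1 in the same order was 382, 385, 366, 927 and 761, with its 2 highest values in the 2 libraries with the largest sums, which are also the high-side ones. In parous K8iDRank mice the sums of 4659, 5169, 8170 and 8339 went with Ehf at 594, 511, 229 and 357 and Elf5 at 199, 150, 110 and 120. Aldh1a3 in these K8iDRank libraries was 551, 714, 445 and 419, and Irx1 was 200 to 224 without such an order. In parous K8imTmG Aldh1a3 did not fall as the sum rose, with its lowest value (229) in mouse 532 and its highest (352) in mouse 557. The part of the hormone-sensing markers in the parity and genotype differences of Ehf, Elf5, Irx1 and Aldh1a3 was not tested.

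**Figure D4:**
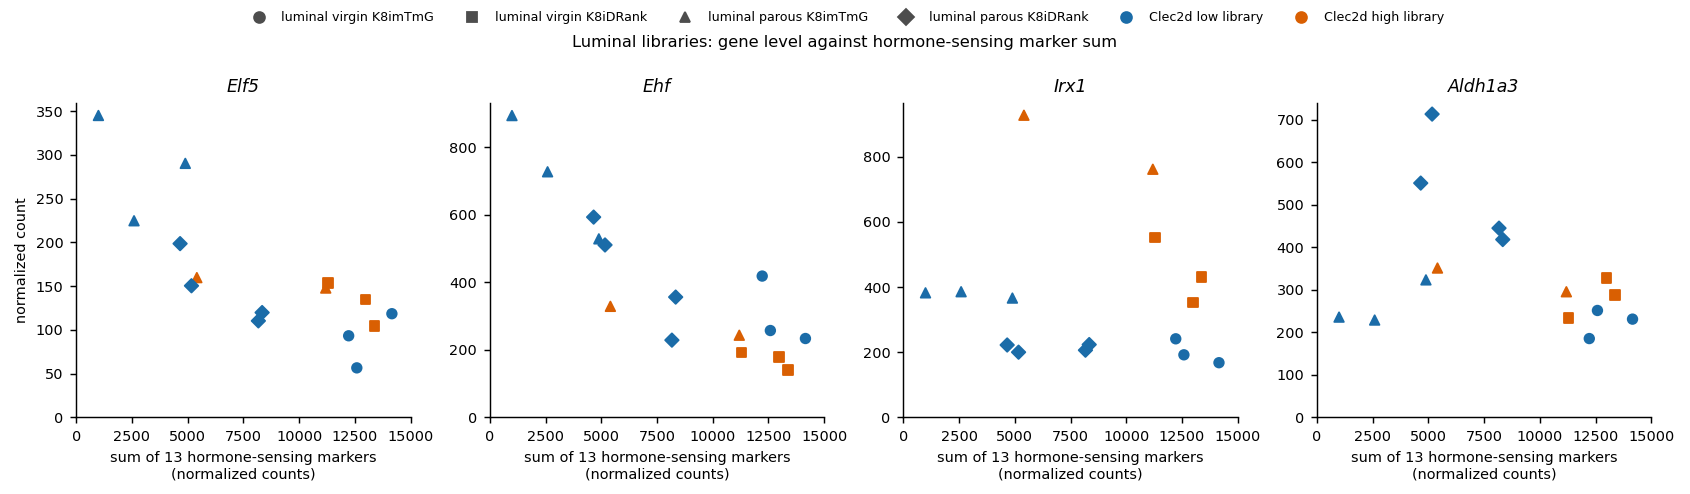
Normalized count of Elf5, Ehf, Irx1 and Aldh1a3 (y axes) against the sum of 13 hormone-sensing markers in normalized counts (x axis) in the 15 luminal libraries. Symbols are groups and colors Clec2d sides. Ehf and Elf5 are highest in parous K8imTmG libraries with the smallest sums, the 4 highest Irx1 values are on the high side, and Aldh1a3 is highest in parous K8iDRank.

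In basal cells Elf5, Ehf and Kit were close to the floor, and Elf5 was tested in no basal comparison because too few of its values exceeded 10. Between genotypes in virgin basal cells 0 of 6 genes tested passed (limma), beside 8.99% of all genes, with 1 at an unadjusted p under 0.05 beside 29.3% of all genes. None passed in DESeq2 or edgeR, where 10.9% and 8.20% of all genes did. Groups did not overlap for 2 of them, beside 28.2% of all genes. Irx1 was 652, 661 and 1228 in K8imTmG and 434, 413, 477 and 586 in K8iDRank, lower in every K8iDRank library (log2 fold change -0.77, SE 0.26, limma adjusted p = 0.088), and Aldh1a3 was 21.7 to 37.2 and 11.8 to 19.3. Here K8imTmG is the high side, opposite to virgin luminal cells, and Irx1 was again higher on the high side.

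Between genotypes in parous basal cells 0 of 7 genes passed (limma), beside 0.906% of all genes, with 3 at an unadjusted p under 0.05 beside 22.6% of all genes. In DESeq2 2 of them passed (Irx1 and Runx1) beside 6.09% of all genes, and in edgeR 0 did beside 0.633%. Runx1 was 230, 257, 338 and 388 in K8imTmG and 576, 515, 848 and 443 in K8iDRank, which do not overlap (log2 fold change 0.96, SE 0.24, limma adjusted p = 0.065). It was the 1 gene of the 7 without overlap, beside 12.0% of all genes. Irx1 was 1407, 856, 1286 and 1076 in K8imTmG and 281, 943, 314 and 475 in K8iDRank (log2 fold change -1.35, SE 0.34, limma adjusted p = 0.064), with mouse 794 of K8iDRank inside the control range. Without mouse 794 both passed, Irx1 at -1.71 (limma adjusted p = 0.00844) and Runx1 at 1.01 (limma adjusted p = 0.0322), as did 1050 of all genes tested. The basal library of mouse 794 lay on the high Clec2d side, as did that of mouse 830 and all 4 of K8imTmG. Leaving mouse 794 out therefore ties genotype more closely to side. With the Clec2d side as a term and all basal libraries in one fit, the values were -0.76 for Irx1 (SE 0.30) and 0.68 for Runx1 (SE 0.30). Neither passed, and 0 of all genes tested did (limma). That fit takes the size of the side effect from the 4 basal parous K8iDRank libraries alone.

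For parity in basal cells 0 of 5 genes tested in K8imTmG and 0 of 7 in K8iDRank passed in limma, DESeq2 or edgeR, with 0 and 1 at an unadjusted p under 0.05 beside 9.20% and 9.84% of all genes. Of all genes 0% passed in limma in either genotype. Irx1 was 652 to 1228 in virgin and 856 to 1407 in parous K8imTmG basal libraries, and 413 to 586 and 281 to 943 in K8iDRank. Cebpb was 562 to 1298 and 409 to 796 in K8imTmG, and 324 to 776 and 485 to 695 in K8iDRank. The basal genotype by stage interaction also gave 0 of 6 genes (limma, DESeq2 and edgeR, with 0 at an unadjusted p under 0.05) beside 0% of all genes, with -0.57 for Irx1 (SE 0.47).

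Other genes of the same programs were read from lists, whose counts stand beside the shares of all genes given above, 55.7% between lineages, 2.20% and 16.0% for luminal parity in K8imTmG and K8iDRank, and 12.9% for the luminal interaction. Of 16 further luminal progenitor genes 15 were in the table, and between lineages 9 were higher and 4 lower in luminal cells (median log2 difference 1.24, beside 0.04 over all genes). The tight junction gene Cldn4 (5.0), Plet1 (4.89) and Wfdc18 (3.86) were higher, whereas the protease inhibitor gene Slpi (-6.30), the integrin gene Itgb3 (-2.36) and Sox10 (-0.72) were lower. With parity in K8iDRank luminal cells 4 of 15 rose and 0 fell, among them Mfge8 (1.26, limma adjusted p = 0.00392), Foxc1 (1.26, limma adjusted p = 0.0106) and Sox10 (1.21, limma adjusted p = 0.017). In K8imTmG 0 of 15 passed with parity (limma, 8 at an unadjusted p under 0.05), with a median of 0.84 beside -0.01 over all genes.

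In luminal cells 11 of the 18 alveolar regulators measured were higher and 4 lower. Prlr (5.59), the Notch receptor gene Notch3 (2.85) and the Notch target Hey1 (2.04) were higher, and Tfap2c (-2.34), Nfia (-0.44) and Nfib (-0.39) were lower. With parity in K8imTmG luminal cells 2 of 18 rose and 0 fell, Tfap2c by 1.34 (limma adjusted p = 0.0428) and the helix-loop-helix factor Id2 by 1.15 (limma adjusted p = 0.0471). In K8iDRank 1 of 18 passed, Stat5a, which carries the prolactin signal and fell by 1.33 (limma adjusted p = 0.0379). Of 9 milk products tested 5 rose with parity in K8imTmG and 3 in K8iDRank, with 0 falling in either. Csn3, the kappa-casein gene, was already higher in virgin K8iDRank than in virgin K8imTmG luminal cells (2.15, limma adjusted p = 0.0349), again along the Clec2d side. The 2 milk genes that passed for the luminal interaction were Csn3 (-2.70, limma adjusted p = 0.00765) and Csn1s2a (-5.31, limma adjusted p = 0.0359). The casein genes Csn2 and Csn1s1 had means of 879 ± 665 (SD, n = 5) and 2614 ± 643 (SD, n = 5) in parous K8imTmG and of 190 ± 336 (SD, n = 4) and 822 ± 501 (SD, n = 4) in parous K8iDRank libraries. Csn2 was under 1 on average in both virgin luminal groups.

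Among family members and partners, 20 of 22 listed genes were in the table, and 6 were higher and 8 lower in luminal cells. The Ets factors Spdef (4.23) and Elf3 (2.69) were higher there together with Sox6 (2.55). The Iroquois gene Irx4 (-7.35), the Kit ligand gene Kitl (-1.94) and Sox5 (-2.63) were higher in basal cells, so that the ligand of Kit was on the side where Kit itself was near its floor. Cbfb, which encodes the partner subunit of Runx1, fell with parity in K8iDRank luminal cells by 1.29 (limma adjusted p = 0.00773) and had an interaction of -1.73 (limma adjusted p = 0.0172). Ets2 fell by 1.09 with parity in K8imTmG (limma adjusted p = 0.0412) and had an interaction of 1.69 (limma adjusted p = 0.00765), the opposite sign to that of Irx1. In the retinoic acid list 3 of 10 genes were higher in luminal cells and 5 lower, with the binding protein gene Crabp2 (3.24) higher and the dehydrogenase genes Rdh10 (-1.65) and Aldh1a1 (-3.21) lower. Aldh1a1 thus lay opposite to Aldh1a3. With parity in K8imTmG Crabp2 rose by 2.03 (limma adjusted p = 0.0285), and in K8iDRank the retinoid receptors Rxra and Rxrb rose by 1.09 (limma adjusted p = 0.0179) and 0.92 (limma adjusted p = 0.0374). The K8iDRank parity and interaction values of these lists run along the Clec2d side as those of the 8 genes do, and with the side as a term 0 of all genes passed for K8iDRank luminal parity and 5 for the luminal interaction (limma alone was run with this term), beside 1643 and 1326 without it.

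The genes whose level was most like each of the 8 across the 30 libraries, after the mean of each lineage was subtracted, were searched among 5222 genes with a mean of at least 50. Irx1 was closest to Mtarc2 (Pearson's r of 0.91) and Kansl2 (0.88), Runx1 to Mbnl2 (0.83) and Ktn1 (0.80), and Ehf to Txn2 (0.81) and Mpp6 (0.81). Elf5 was closest to Fcgbp (0.80) and Tgs1 (0.77), Aldh1a3 to Tspan8 (0.73) and Arhgef17 (0.64), and Kit to Irf2bp2 (0.72) and Spns2 (0.70). Cebpb was closest to Wfdc18 (0.67) and Nptn (0.66), and Sox9 to Greb1 (0.68) and Fermt1 (0.63). Within luminal and basal libraries r was 0.66 and 0.89 for Elf5 with Fcgbp, and 0.64 and 0.89 for Ehf with Txn2. For Kit it was 0.61 and 0.83 with Irf2bp2, and the other way round with Spns2, at 0.77 and 0.70. Elf5, Ehf and Kit were near their floor in basal cells. Depth and Clec2d side also vary across these libraries, and the values describe likeness of level only.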

How the data were processed

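Luminal and basal cells were sorted by CD24 and CD49f after exclusion of CD45 and CD31 positive cells, and luminal cells also as GFP+. The authors made the deposited signal values from QuantSeq 3′ reads by UMI deduplication with UMI-tools, alignment to GRCm39 with Bowtie2, counting on GENCODE vM26 and division by DESeq2 size factors. FastQC 0.11.9 is named in the submitters' processing notes. They state a filter on normalized counts above 10 in 25% of samples. Other genes were not used here. Each deposited column was used, and 100% of values were whole multiples of the value of 1 read (tolerance 0.01), so reads were recovered. In the 43 replicate pairs the lowest chi-square per degree of freedom was 2.67.

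For each comparison limma 3.58.1 was fitted, with its trend option, to the log2 of normalized counts plus a pseudocount of 1, over genes above 10 in 25% of the libraries compared, with Benjamini-Hochberg adjustment over all genes tested. Fold changes are on that scale, which understates those of low genes. Alternatives were a pseudocount of 4, no filter, quantile normalization, array weights, one fit per lineage, DESeq2 1.42.0 and edgeR 4.0.16 on recovered reads, each library left out, mouse as a block and the Clec2d side. The Clec2d side as a term in one fit per lineage was chosen after seeing the data. The tests were tried on simulated data. Comparisons share libraries. The genes and lists were chosen with earlier results of these data known. Named are all 8 genes, at most 3 genes of each list rising and 3 falling in a comparison (those of lowest adjusted p, under 0.05), the 2 genes most like each, and Tnfrsf11a and Clec2d. A gene that this rule selects from the retinoic acid list is not reported here. In 13 mice the deviations of a mouse's 2 libraries from their group means correlated at -0.24 to 0.34, over 0.1 in 6, and the pairing comes from the mouse numbers. R 4.3.3, Python 3.11.15, pandas 2.3.3 and matplotlib 3.10.9 were used. Coordinates are those of GENCODE vM39.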

Additional observations from a re-analysis of the deposited data

Results flagged for a closer look

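Runx1 in luminal parous K8imTmG mouse 558 was 360, apart from the 236 to 261 of the other 4 libraries by 0.80 of the group's range. This was the 1 library of this kind in 40 groups of 4 or 5 tested over the 8 genes, and chance gives about 1 in 20. The fall of Runx1 with parity in K8imTmG passed with or without this mouse.

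The effect of genotype on Irx1 differed between stages in luminal cells, with an interaction of -2.42. Irx1 was higher in virgin K8iDRank and lower in parous K8iDRank than in K8imTmG of the same stage. The 3 virgin K8iDRank and 2 of the 5 parous K8imTmG libraries lie on the high Clec2d side, and with that side as a term the interaction was -0.81 (limma adjusted p = 0.259).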

How the results depend on the processing

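The lineage differences were the steadiest, with 7 of the 8 genes past the threshold in limma, DESeq2 and edgeR, and with mouse as a replicate block over the 13 mice (also 7, with 6158 genes past the threshold beside 6137 in the same mice without the block). Leaving out 1 mouse gave 7 to 8 beside 5790 to 6304 of all genes, with Runx1 at -0.31 (limma adjusted p = 0.0465) without mouse 794. The block changed no call.

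The number of the 8 genes that passed moved in most other comparisons, and the cause was not tested except where fewer samples or genes show it. With array weights it was 5 for genotype in virgin luminal cells, 3 in parous luminal, 1 in virgin basal and 3 in parous basal cells, 7 for parity in K8imTmG luminal cells and 5 for the luminal interaction, beside 25%, 11.4%, 12.6%, 24.3%, 38.8% and 26% of all genes in that order, and 4 of the 11 weight fits stopped before converging. With DESeq2 it was 1, 2 and 3 for virgin luminal genotype, parous luminal genotype and K8imTmG luminal parity, and 2 each for parous basal genotype and the luminal interaction, beside 6.44%, 6.06%, 10.3%, 6.09% and 19.4% of all genes. With 1 fit per lineage it was 1 for parous luminal and 1 for parous basal genotype, 3 for K8imTmG and 0 for K8iDRank luminal parity, beside 0.436%, 1.60%, 7.72% and 2.21%. Quantile normalization gave 2 for the luminal interaction (beside 12.9%), and for K8imTmG luminal parity it passed Irx1 (1.44) in place of Runx1 (-0.95), beside 2.16%. Low-side libraries alone gave 1 for parous luminal genotype and 4 for K8imTmG luminal parity, beside 0.416% and 12.8%. With side as a term the counts were 2 for parous luminal genotype, 5 for K8imTmG and 0 for K8iDRank luminal parity, and 0 for the luminal interaction, beside 0.833%, 15.1%, 0% and 0.0487%. Leaving out each library gave 0 to 2 genes for K8imTmG luminal parity, 1 to 3 for K8iDRank luminal parity, 0 to 2 for parous basal genotype and 1 to 2 for the luminal interaction. In that order, 3 to 732, 729 to 1570, 0 to 1050 and 336 to 1533 of all genes passed in these fits.

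Sign changed only for values that did not pass in that alternative. With side as a term these were, for virgin luminal genotype, Ehf 0.52 and Irx1 -0.011; for K8iDRank luminal parity, Elf5 -0.75, Ehf -0.084 and Irx1 0.11; for the luminal interaction, Ehf -1.34; for parous luminal genotype, Cebpb 0.059 (0.059 also in low-side libraries and 0.16 with array weights). In basal cells side as a term gave Ehf -0.12, Irx1 0.40 and Runx1 -0.18 for virgin genotype, Cebpb 0.20 for parous genotype (0.20 also in high-side libraries) and Cebpb -0.055 for K8iDRank parity (-0.055 also in low-side libraries). Sox9 was -0.014 for K8iDRank luminal parity in DESeq2, 0.29 and 0.11 for virgin and parous basal genotype with quantile normalization (Cebpb 0.10 in the latter), and 0.13 and 0.043 for K8iDRank basal parity and the basal interaction with array weights. Irx1 was 0.098 and 0.096 for K8iDRank basal parity in DESeq2 and edgeR.

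Leaving out 1 library changed sign within these ranges: Cebpb -0.11 to 0.070 in parous luminal genotype, -0.19 to 0.13 in parous basal genotype and -0.057 to 0.36 in K8iDRank basal parity. For K8iDRank luminal parity they were Elf5 -0.041 to 0.25, Kit -0.55 to 0.019, Sox9 -0.12 to 0.13 and Runx1 -0.31 to 0.075. Aldh1a3 ran from -0.062 to 0.91 in parous basal genotype and from -0.95 to 0.029 in K8imTmG basal parity. Sox9 ran from -0.081 to 0.22 in K8imTmG and -0.21 to 0.052 in K8iDRank basal parity and from -0.30 to 0.0023 in the basal interaction. Irx1 ran from -0.44 to 0.14 in K8iDRank basal parity and Ehf from -0.46 to 1.41 in the basal interaction. Depth limits Elf5, Ehf and Kit in basal cells, where 3 to 5 of 15 libraries held under 3 reads.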
